A study of Homo sapiens with 48 samples.

Results

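The genes described here build the contacts between neighbouring epithelial cells, and they were knocked out together with the rest of a guide RNA library in a pooled CRISPR screen of 3 human squamous carcinoma lines. They are 10 of the 327 targeted genes in each of the deposited tables and were taken by name. 6 belong to desmosomes (JUP, PKP1, DSC2, DSC3, DSG1 and PERP), 1 to tight junctions (CLDN1) and 3 to gap junctions (GJA1, GJB2 and GJB6). The lines are A431 (A-431 in the labels), from an epidermoid carcinoma, CAL27, from a carcinoma of the tongue, and SCC13 (SCC-13), from a carcinoma of the skin. All groups, the initial cells included, carried pLEX_Cas9 for stable Cas9 expression after blasticidin selection, were infected with the guide lentivirus at a multiplicity of infection of 0.3 and were selected with puromycin. A portion of these cells was frozen as the initial time point, with 2 initial samples per line and setting. A431 and CAL27 cells were then kept in culture for 3 weeks, with 2 later samples per line. Tumors were grown for about 2 months from cells placed with Matrigel in the rear flank, and gave 8 A431 tumors and 10 CAL27 tumors in SHO mice and 16 SCC13 tumors in NOD.Cg-Prkdcscid Il2rgtm1Wjl/SzJ mice. Both kinds of host are immunodeficient. SCC13 was screened in another host strain than the other lines and no SCC13 culture was analysed here, so line and host cannot be told apart for it.

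Desmosomes anchor the keratin filaments of adjacent epithelial cells to each other. Their cadherins, the desmogleins and desmocollins, bind across the gap between cells, and plaque proteins of the armadillo family link the cadherin tails through desmoplakin to keratin. Claudins form the strands of tight junctions that seal the space between cells, and connexins form the channels of gap junctions through which small molecules pass. Squamous epithelium is rich in all of these contacts. In a pooled knockout screen, the guides against a gene become rarer when cells without that gene grow or survive less well than the other cells of the pool, and become more common in the opposite case.

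Some members resemble each other closely enough for 1 guide to be able to cut both genes. The sequences are shown because the effect of such a guide could not be credited to 1 gene alone. The guides that were used are not known here. In the coding sequences of the 10 genes (GENCODE v44 on GRCh37, MANE Select transcript), every 20-base site followed by NGG was listed on both strands. DSC2 had 277 such sites and DSC3 had 268, and 9 were exactly alike in both genes. These 9 lie in a stretch of 80 identical bases in exon 15 of each gene, at chr18:28648861-28648970 for DSC2 and chr18:28576758-28576867 for DSC3 with 15 coding bases on each side, both on the minus strand, where capitals mark the identical bases.
DSC2: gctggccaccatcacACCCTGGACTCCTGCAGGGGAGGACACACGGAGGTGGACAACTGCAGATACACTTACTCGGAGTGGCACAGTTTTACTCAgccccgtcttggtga
DSC3: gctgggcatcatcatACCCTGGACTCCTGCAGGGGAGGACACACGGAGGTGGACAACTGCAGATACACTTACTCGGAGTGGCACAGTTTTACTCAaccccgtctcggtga
GJB2 had 87 sites and GJB6 had 95, and they shared 1, in exon 2 of GJB2 (chr13:20763647-20763696) and exon 5 of GJB6 (chr13:20797546-20797595), again on the minus strand with the shared 20 bases in capitals.
GJB2: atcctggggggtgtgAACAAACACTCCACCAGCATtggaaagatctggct
GJB6: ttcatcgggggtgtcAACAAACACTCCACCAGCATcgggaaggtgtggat
The other pairs of members shared 0 sites. DSC3 and DSC2 are also neighbours on chromosome 18, and GJB2 and GJB6 on chromosome 13, in the order of protein-coding genes of RefSeq (GRCh38.p14).

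The deposited value of a gene in a tumor or culture is a log fold change against the initial cells. Its log base is unknown here, and values are therefore called log units. The non-targeting guides stand at 0 in all 38 later samples, so deposited values are relative to them. The median of the 327 genes lay below them in 37 of the 38 later samples, at -0.37 to -0.36 and -0.49 to -0.47 in the cultures of A431 and CAL27 and at -0.55 to -0.07, -1.50 to -0.56 and -2.67 to 0.53 in the tumors of A431, CAL27 and SCC13. Values below are relative to this median gene unless the non-targeting guides are named. Values below 0 are read as loss of guides, a direction the tables do not state. MCM3, part of the replicative helicase, had means of -1.10 and -1.44 in A431 and CAL27 culture and of -0.60, -2.15 and -2.85 in A431, CAL27 and SCC13 tumors. When tumors were set against each other, 4 or more genes differed by the same amount to 6 decimals, as genes with no reads in either tumor would. This held for 101 of 120 SCC13 pairs, for 6 of 45 CAL27 pairs and for 0 of 28 A431 pairs. Among the members such values occurred only in SCC13, in 6 tumors for DSC3, 4 for GJA1, 3 for GJB6, 2 each for JUP, PKP1, DSG1 and PERP and 0 for DSC2, CLDN1 and GJB2. Over all genes, a median of 92.5 of 327 had such a value per SCC13 tumor, from 8 to 145. Of the members' such values, 2 of GJB6 and 1 each of JUP, PKP1, DSC3 and GJA1 lie above the median gene, up to 2.20 for GJB6, and are counted as above it below. Without them 10, 11, 13, 8 and 6 of the 16 tumors are above it for GJB6, JUP, PKP1, DSC3 and GJA1. Their part in the results was not tested. Nothing in the labels ties tumors to mice or tells separate cultures apart, so p-values measure the spread between these samples, which may be partly technical. The tables hold guide abundance and no expression, so the lines were not checked against marker genes.

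Knockouts of junction genes were gained rather than lost where they passed the test against the median gene. JUP and DSC2 rose in A431 tumors, DSG1 and GJA1 in CAL27 tumors, and GJB2, DSG1 and PKP1 in SCC13 tumors. DSC3, DSG1 and CLDN1 rose in CAL27 culture. By limma with Benjamini-Hochberg adjustment over all 327 genes at 0.05, 0 members were called lower in any of the 5 tables, and 0 had an unadjusted p under 0.05 in that direction. Relative to the non-targeting guides most member calls were lower, with JUP in A431 tumors the exception, as described further on.

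Beside these counts stand the shares of all genes called in each table. 0 of 10 members were called higher in A431 culture, where 2.14% of the 327 genes were called higher and 11.3% lower. The 3 members called in CAL27 culture stand beside 4.89% of genes called higher and 18.7% lower. The 2 called in A431 tumors stand beside 7.95% higher and 11.9% lower, the 2 in CAL27 tumors beside 18.7% higher and 22% lower, and the 3 in SCC13 tumors beside 23.5% higher and 23.9% lower. In the tumors of CAL27 and SCC13 the members' counts are thus close to the share of all genes called higher. The median of the 10 members' means lay at 0.096 and 0.14 in the cultures of A431 and CAL27, where that of all genes lay at 0.013 and 0.0018. It lay at 0.13, 0.086 and 0.65 in the tumors of A431, CAL27 and SCC13, where that of all genes lay at 0.018, 0.0094 and -0.019. The lowest member mean of any table was -0.46, that of PERP in A431 tumors, rank 258 of 327 from the highest.

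**Figure D1:**
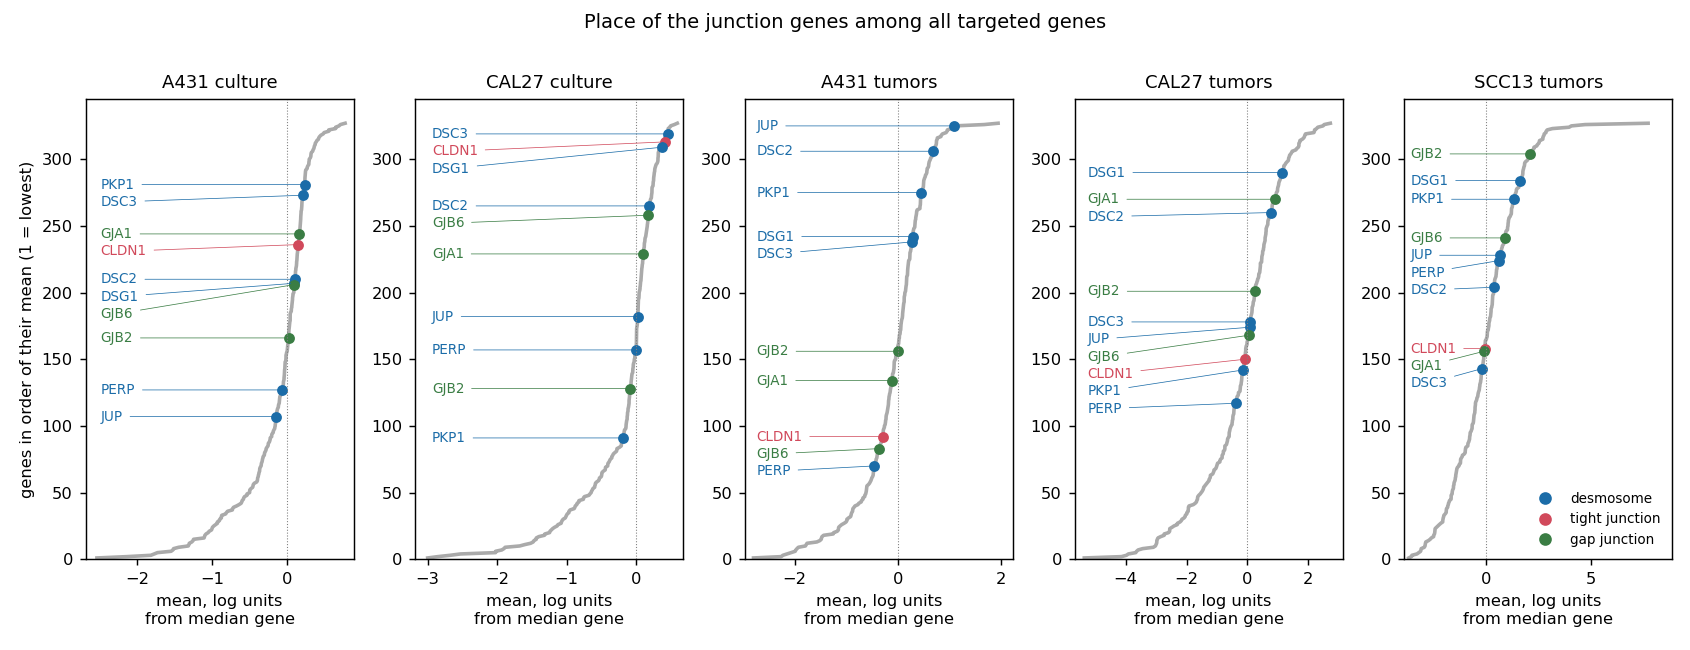
Means of all 327 targeted genes in each table in order from lowest (1) to highest, in log units from the median gene (grey line), with the 10 junction genes as points coloured by junction type. JUP has the third highest mean of A431 tumors and PERP in the same tumors, at -0.46, has the lowest mean of any junction gene.

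JUP (chr17:39910856-39943183, GRCh37), which encodes plakoglobin, the plaque protein shared by desmosomes and adherens junctions, had the clearest gain in A431 tumors. Its value was above the median gene in 8 of 8 A431 tumors, with a lowest value of 0.29, a median of 1.01 and a highest value of 2.10. The mean was 1.09 ± 0.51 (SD, n = 8; limma, adjusted p = 0.0026), which ranked 3 of 327. By an exact sign-flip test JUP and DSC2 did not pass in A431 tumors (two-sided, adjusted p = 0.066, p = 0.0078 before adjustment, the smallest that 8 tumors allow). In A431 culture both values were below the median gene, at -0.25 and -0.049, so the A431 tumors and cultures did not overlap. The share of all 327 genes without such overlap was not counted. CAL27 tumors were spread around the median gene, from -0.67 through a median of 0.0045 to 0.80, with 5 of 10 above it, and the CAL27 cultures lay at -0.0017 and 0.043. SCC13 tumors ran from -2.27 through 0.78 to 2.91, with 12 of 16 above the median gene and a mean of 0.68 ± 1.32 (SD, n = 16; limma, adjusted p = 0.21). The 8 A431 tumors are therefore the group in which JUP was uniformly high.

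PKP1 (chr1:201252580-201302121), plakophilin 1, is the plaque protein of suprabasal epidermis that ties desmosomal cadherins to desmoplakin. Its knockout rose in SCC13 tumors, where values ran from -0.95 through a median of 1.29 to 5.86 and 14 of 16 were above the median gene. The mean was 1.35 ± 1.64 (SD, n = 16; limma, adjusted p = 0.0091). Without the highest tumor, value column 12, the mean was 1.05 and the adjusted p 0.052. A431 tumors lay between -0.54 and 1.35 with 6 of 8 above the median gene, and CAL27 tumors between -2.30 and 1.54 with 4 of 10 above it. The A431 cultures lay at 0.44 and 0.016 and the CAL27 cultures at -0.31 and -0.084, so PKP1 was on opposite sides of the median gene in the cultures of the 2 lines.

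DSG1 (chr18:28898123-28939209) encodes desmoglein 1, the cadherin of the upper epidermis that is cut in staphylococcal scalded skin and bound by antibodies in pemphigus foliaceus. It passed in 3 of the 5 tables, more than any other member. All 10 CAL27 tumors were above the median gene, from 0.31 through a median of 0.95 to 2.33, and the mean was 1.13 ± 0.70 (SD, n = 10; limma, adjusted p = 0.0043). SCC13 tumors ran from -2.20 through 1.78 to 4.91, with 12 of 16 above the median gene and a mean of 1.62 ± 2.08 (SD, n = 16; limma, adjusted p = 0.0028). The CAL27 cultures lay at 0.41 and 0.33, a mean of 0.37 (limma, adjusted p = 0.044). That call was lost when columns were scaled by their median absolute deviation over genes (limma, adjusted p = 0.065). In A431 it did not pass: the tumors lay between -0.59 and 1.46 with 5 of 8 above the median gene, and the cultures at 0.18 and 0.0031.

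DSC2 (chr18:28638806-28682485), the desmocollin found in all desmosome-bearing tissues, rose in A431 tumors. All 8 values were above the median gene, from 0.13 through a median of 0.85 to 1.12, with a mean of 0.68 ± 0.39 (SD, n = 8; limma, adjusted p = 0.023). The call was lost when any of value columns 1, 2, 3, 5 or 7 was left out, with adjusted p-values between 0.016 and 0.059 over the 8 fits. CAL27 tumors had a similar mean with a wider spread, 0.76 ± 1.54 (SD, n = 10; limma, adjusted p = 0.15), from -2.28 to 2.59 with 7 of 10 above the median gene. Without the lowest of them, value column 3, the mean was 1.10 and the adjusted p 0.022. SCC13 tumors were divided, with 8 of 16 above the median gene and a range of -1.21 to 2.68. The cultures lay at 0.22 and -0.022 in A431 and at 0.33 and 0.041 in CAL27.

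DSC3 (chr18:28569331-28622781) encodes desmocollin 3, the isoform of the basal layers of squamous epithelium. It rose in CAL27 culture, where the values were 0.35 and 0.55 and the mean 0.45 (limma, adjusted p = 0.047), rank 9 of 327. In tumors it did not pass in any line. A431 tumors ran from -1.12 through 0.30 to 1.17, CAL27 tumors from -1.15 through -0.15 to 2.25 and SCC13 tumors from -3.47 through 0.18 to 3.33, and all 3 ranges span the median gene. Relative to the median gene, DSC2 and DSC3, which share the stretch shown above, were not called in the same table, and relative to the non-targeting guides both were called lower in SCC13 tumors.

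PERP (chr6:138409642-138428556) encodes a membrane protein of stratified epithelia that desmosomes need and that p63 and p53 induce. Its guides were not called in any table relative to the median gene. In A431 tumors 7 of 8 values were below the median gene, from -1.02 through a median of -0.50, while value column 2 stood apart at 0.92. The mean was -0.46 ± 0.63 (SD, n = 8; limma, adjusted p = 0.16), and without that tumor it was -0.66 with an adjusted p of 0.038. CAL27 tumors ran from -1.52 through -0.64 to 1.97 with a mean of -0.39 ± 1.09 (SD, n = 10). SCC13 tumors had the widest range of any member, from -3.99 to 6.74, with 8 of 16 above the median gene. The cultures lay close to the median gene, at -0.074 and -0.077 in A431 and at -0.071 and 0.066 in CAL27.

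CLDN1 (chr3:190023496-190040235) encodes claudin 1, which the barrier of the epidermis needs. Both CAL27 cultures were above the median gene, at 0.42 and 0.39, and the mean of 0.41 passed the test (limma, adjusted p = 0.037). The A431 cultures lay at 0.040 and 0.25. In A431 tumors 7 of 8 values were below the median gene, from -0.93 through -0.28 to 0.54, with a mean of -0.30 ± 0.44 (SD, n = 8; limma, adjusted p = 0.32). CAL27 tumors lay between -1.73 and 0.95 and SCC13 tumors between -3.15 and 2.32, with 4 of 10 and 8 of 16 above the median gene. Relative to the median gene, CLDN1 therefore had a call in 1 culture and none in tumors. Relative to the non-targeting guides it was not called in CAL27 culture, at -0.076, and was called lower in the tumors of A431, CAL27 and SCC13. The tumor means were then -0.57, -0.90 and -1.67 (limma, adjusted p = 0.043, 0.027 and 0.0022). Of all genes, 22.3%, 50.2% and 67.3% were called lower in these tumors.

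**Figure D2:**
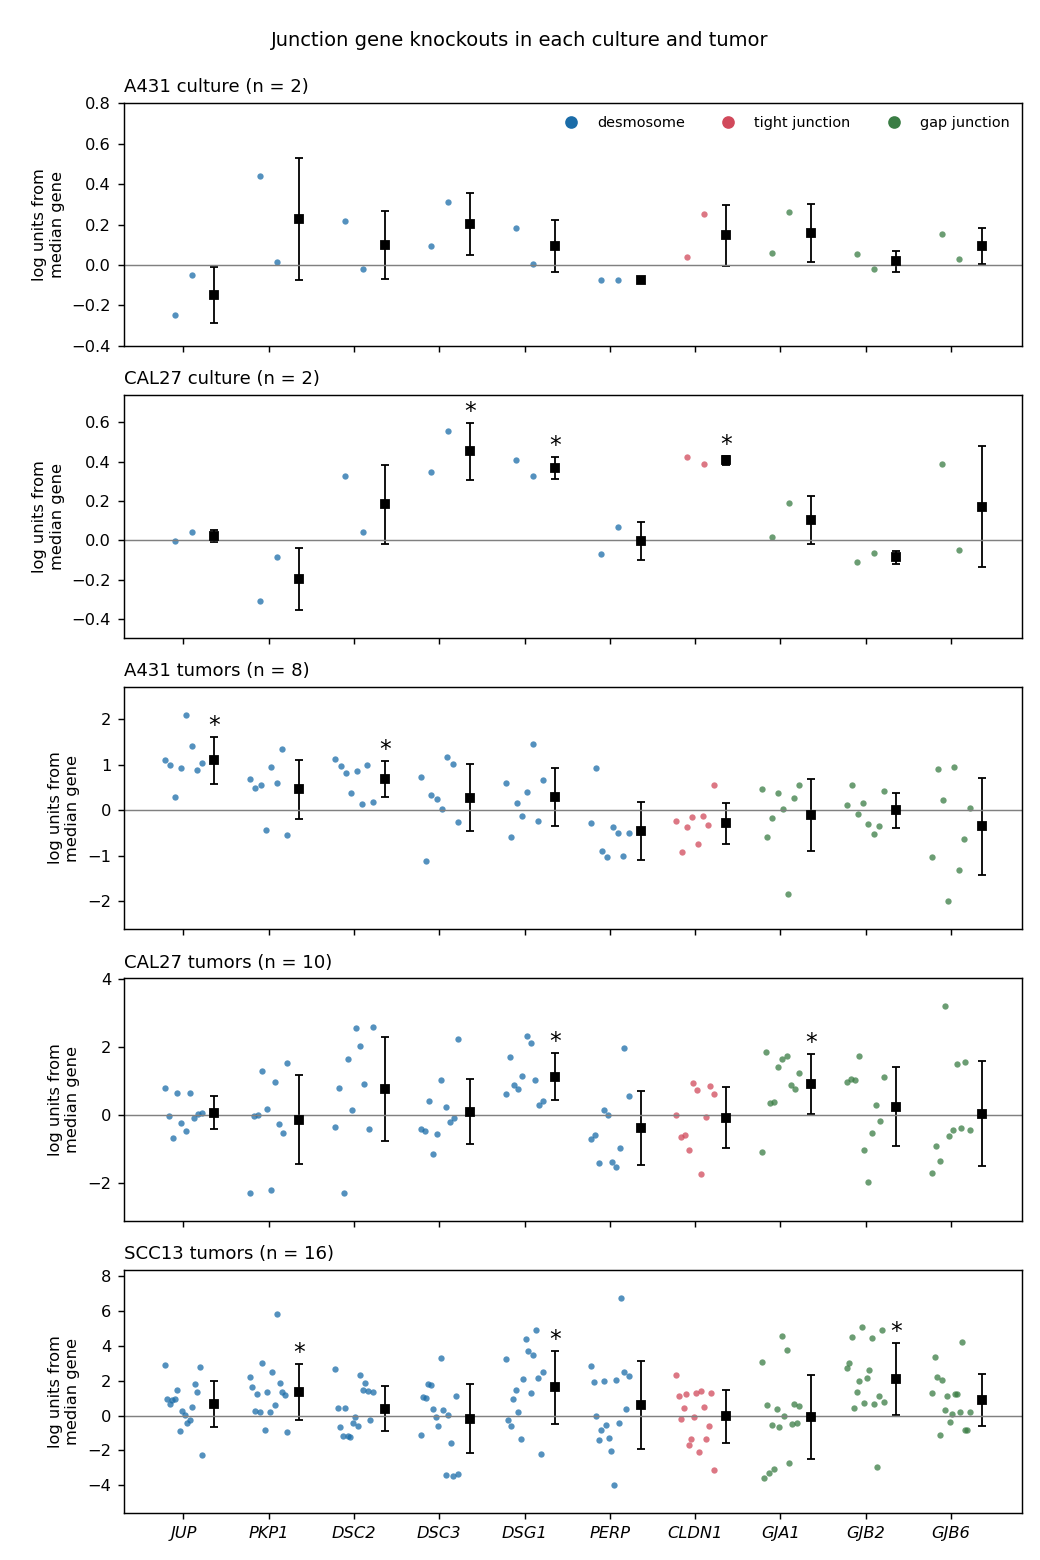
Value of each junction gene in each culture and tumor, in log units from the median gene (0, grey line). Each point is 1 sample, black squares and bars are mean ± SD, stars mark an adjusted p under 0.05 (limma), and the vertical scale differs between panels. JUP and DSC2 are above 0 in all 8 A431 tumors and DSG1 in all 10 CAL27 tumors. The SCC13 tumors have the largest SD for each gene except DSC2 and GJB6, for which CAL27 tumors do.

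GJB2 (chr13:20761602-20767077) encodes connexin Cx26, mutated in inherited deafness and in skin disease, and had the largest mean of any member. In SCC13 tumors its values ran from -2.95 through a median of 2.08 to 5.07, and 15 of 16 were above the median gene. The mean was 2.10 ± 2.09 (SD, n = 16; limma, adjusted p = 0.00013), rank 24 of 327. A431 tumors lay from -0.54 through 0.0066 to 0.55 with 4 of 8 above the median gene, and CAL27 tumors from -1.97 through 0.63 to 1.73 with 6 of 10 above it. The cultures lay at 0.056 and -0.021 in A431 and at -0.11 and -0.062 in CAL27. 14 of the 16 SCC13 tumors were higher than every A431 tumor, and 9 were higher than every CAL27 tumor. The shares of all genes with as many SCC13 tumors so placed were not counted.

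GJA1 (chr6:121756741-121770873), connexin Cx43, is the most widespread connexin and is found in the basal and spinous layers of epidermis. It rose in CAL27 tumors, where 9 of 10 values were above the median gene, between 0.35 and 1.84, and value column 1 lay apart at -1.08. The mean was 0.92 ± 0.88 (SD, n = 10; limma, adjusted p = 0.025). The call was lost without value column 2, 5, 6 or 7, and adjusted p-values lay between 0.0062 and 0.065 over the 10 fits. A431 tumors ran from -1.84 through 0.15 to 0.55 and SCC13 tumors from -3.61 through -0.25 to 4.58, with 5 of 8 and 7 of 16 above the median gene. The cultures lay at 0.057 and 0.26 in A431 and at 0.016 and 0.19 in CAL27.

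GJB6 (chr13:20796101-20806504), connexin Cx30, pairs with Cx26 in the inner ear and the epidermis. In SCC13 tumors its values ran from -1.12 through 0.72 to 4.25 with 12 of 16 above the median gene, and the mean of 0.90 ± 1.51 (SD, n = 16) had a limma p of 0.046 before adjustment and 0.091 after it. A431 tumors lay between -2.01 and 0.95 with 4 of 8 above the median gene, and CAL27 tumors between -1.70 and 3.19 with 3 of 10 above it. The A431 cultures lay at 0.16 and 0.032 and the CAL27 cultures at 0.39 and -0.047. The second A431 culture value, -0.33 relative to the non-targeting guides, was shared exactly by 9 genes of that column, GJB6 included. Within SCC13, GJB2 and GJB6 thus both had positive means, and 1 of the 2 passed.

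Tumors were compared with culture of the same line to ask where values differed between the settings. In A431 and CAL27 alike, tumors were grown for longer than cultures were kept, and each setting had its own initial samples. Growth in the mouse therefore cannot be told apart from time or from the initial samples in these comparisons. JUP differed most in A431: the mean was 1.09 in tumors and -0.15 in culture, a difference of 1.24. For JUP 8 of 8 tumors were above both cultures, and the share of all genes so separated was not counted. With 1 spread for both settings the standard error was 0.42 and the 95% interval 0.33 to 2.14, and the gene did not pass (limma, unadjusted p = 0.011, adjusted p = 0.30). In that fit 0% of the 327 genes were called and 20 had an unadjusted p under 0.05. With a spread of its own for each setting the standard error was 0.24 and JUP passed (limma, adjusted p = 0.0043), 1 of 10 members beside 7.65% of all genes. DSC2 had a difference of 0.58 in A431 with 6 of 8 tumors above both cultures (limma, adjusted p = 0.89 with 1 spread and 0.12 with own spreads). The share of all genes with as many tumors above was not counted either.

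In CAL27 the largest differences were those of GJA1 and DSG1. DSG1 had a mean of 1.13 in tumors and 0.37 in culture, and 9 of 10 tumors were above both cultures. The difference of 0.76 had a 95% interval of -0.63 to 2.16 with 1 spread and 0.11 to 1.42 with own spreads, and an adjusted limma p of 0.79 and 0.072. GJA1 differed by 0.81, with 9 of 10 tumors above both cultures and an adjusted limma p of 0.79 and 0.076. 0 members were called in either fit. With 1 spread 0% of genes were called and 30 had an unadjusted p under 0.05, and with own spreads 30.9% were called. DSC3 and CLDN1, which rose in CAL27 culture, were lower in the tumors by 0.35 and 0.49 on average, with 7 and 6 of 10 tumors below both cultures and 95% intervals that span 0 in both fits. For DSG1, GJA1, DSC3 and CLDN1 the shares of all genes with as many tumors above or below both cultures were not counted.

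**Figure D3:**
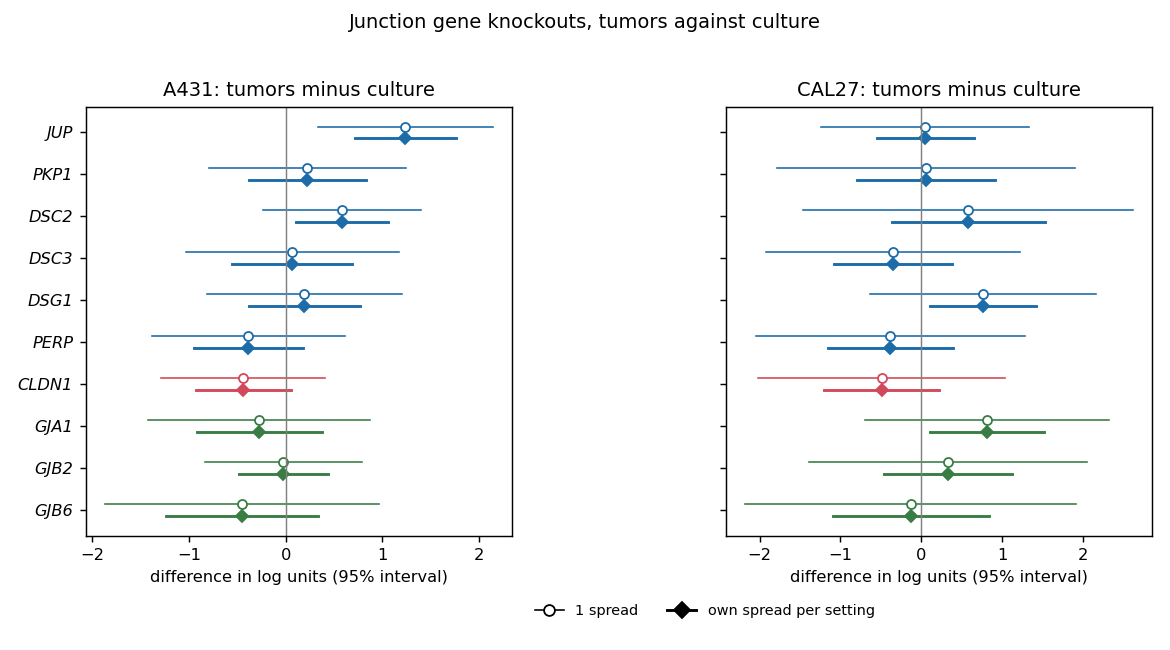
Tumors minus culture for each junction gene in A431 and CAL27, in log units with 95% intervals. Open circles with thin lines use 1 spread for both settings and filled diamonds with thick lines a spread for each, and JUP in A431 is the gene whose interval lies farthest above 0.

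The cultures of CAL27 and A431 did not differ in any member by the test. In that fit 3.06% of the 327 genes were called, and 0 members had an unadjusted p under 0.05. PKP1 had the largest difference: CAL27 lay lower by 0.42 on average, with a 95% interval of -0.87 to 0.026 (limma, adjusted p = 0.23) and both CAL27 values below both A431 values. GJB2 was separated in the same way, and JUP, DSC3, DSG1, PERP and CLDN1 had both CAL27 values above both A431 values. The share of all genes separated like this was not counted, so these separations are not read as a result about the members. The intervals of the 9 members other than PKP1 span 0 too and reach from -0.41 to 0.61, which is the range of differences these cultures leave possible.

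Among tumors, the lines were compared in 1 fit, and GJB2 was the member that differed. By the moderated F test over the 3 lines it passed (limma, adjusted p = 0.0093), 1 of 10 members beside 26.6% of all genes. SCC13 tumors were above A431 tumors by 2.11 (SE 0.66; limma, adjusted p = 0.016), where 21.1% of genes were called. They were above CAL27 tumors by 1.85 (SE 0.61; limma, adjusted p = 0.024), where 17.7% were called. The second call was lost when CAL27 value column 5 or 6 was left out, with a highest adjusted p of 0.066. A431 and CAL27 tumors differed by 0.25 with a 95% interval of -1.18 to 1.69. PKP1 was 1.49 higher in SCC13 than in CAL27 tumors and just missed the threshold (limma, adjusted p = 0.058).

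The spread of the tumors bears on these comparisons, since the SD over the tumors was larger in SCC13 than in A431 for each of the 10 members. With a spread for each line GJB2 kept its 3 calls, at adjusted limma p-values of 0.0035 for the F test, 0.0016 against A431 and 0.019 against CAL27, where 39.1%, 27.8% and 18% of genes were called. DSG1 was then also called higher in SCC13 than in A431 tumors, by 1.33 (adjusted limma p = 0.042), and JUP lower in CAL27 than in A431 tumors, by 1.02 (adjusted limma p = 0.039). In the comparison of CAL27 with A431 tumors 23.2% of genes were called with own spreads, and 3.36% and 0 members with 1 spread. When each tumor was scaled by its own median absolute deviation over genes, JUP and not GJB2 was the member called between lines: A431 tumors were higher than CAL27 tumors (difference CAL27 minus A431 of -1.32 deviations, adjusted limma p = 0.0016) and than SCC13 tumors (SCC13 minus A431 of -1.10 deviations, adjusted limma p = 0.0036). These are 1 of 10 members beside 12.8% and 11.9% of all genes. GJB2 was then 0.97 deviations higher in SCC13 than in A431 tumors, with an adjusted limma p of 0.076.

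**Figure D4:**
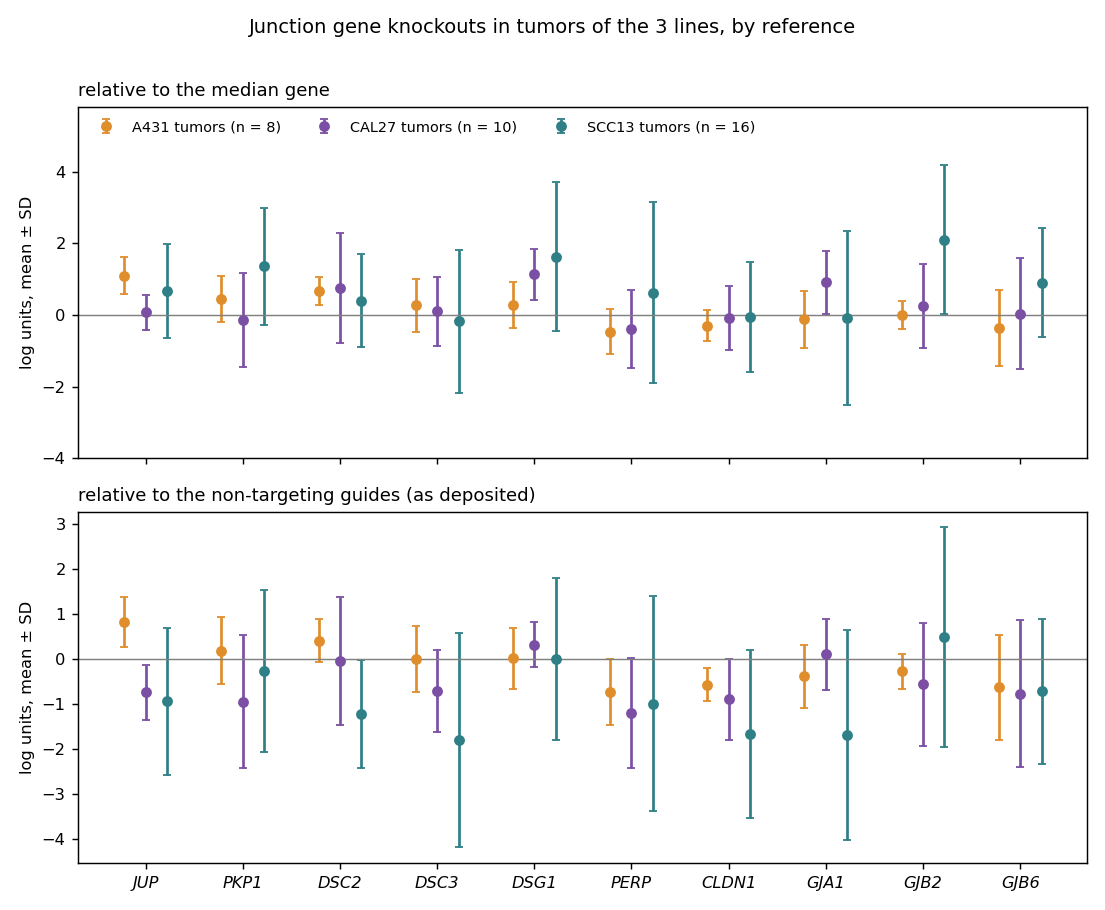
Mean ± SD of each junction gene over the tumors of A431 (n = 8), CAL27 (n = 10) and SCC13 (n = 16), in log units relative to the median gene (top) and to the non-targeting guides (bottom). GJB2 in SCC13 has the highest mean in the upper panel, 2.10, and lies at 0.48 in the lower one, where most means are below 0.

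The reference decided the direction of many members. Relative to the non-targeting guides, JUP in A431 tumors was the 1 member called higher, at 0.82 ± 0.56 with 8 of 8 tumors above 0 (limma, adjusted p = 0.014), where 2.14% of genes were called higher. 2 members, PERP and CLDN1, were called lower there, beside 22.3% of genes. JUP and PERP were called lower in A431 culture, beside 41.6% of genes, and JUP, PERP and CLDN1 in CAL27 tumors, beside 50.2%. In CAL27 culture 7 members were called lower, beside 89.6% of genes, and the 3 that were not are DSC3, DSG1 and CLDN1, the members that rose against the median gene. DSC2, DSC3, CLDN1 and GJA1 were called lower in SCC13 tumors, beside 67.3% of genes. GJB2 stood at 0.48 ± 2.43 there with 10 of 16 tumors above 0 (limma, adjusted p = 0.41), PKP1 at -0.27 and DSG1 at 0.0019.

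PERP was below the non-targeting guides in 7 of 8 A431 tumors and 9 of 10 CAL27 tumors, with means of -0.74 ± 0.74 (limma, adjusted p = 0.042) and -1.20 ± 1.22 (limma, adjusted p = 0.011). The line comparisons changed with the reference as well. GJB2 was then 0.76 higher in SCC13 than in A431 tumors (limma, adjusted p = 0.41), while JUP, DSC2 and DSC3 were called lower in SCC13 than in A431 tumors, by 1.76, 1.63 and 1.79 on average (adjusted limma p-values of 0.018, 0.025 and 0.042), 3 of 10 members beside 38.5% of all genes. In SCC13 against CAL27 tumors GJB2 was 1.05 higher and did not pass (limma, adjusted p = 0.30), while GJA1 was called lower, at -1.70 against 0.10 (limma, adjusted p = 0.037), 1 of 10 members beside 24.5% of genes. By the F test JUP, DSC2 and GJA1 passed (limma, adjusted p = 0.037, 0.037 and 0.048) beside 42.2% of genes, and GJB2 did not (limma, adjusted p = 0.39).

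The junction types were compared within each sample as the mean over the desmosome members against the mean over the gap junction members, a description with no test. In A431 tumors the desmosome mean was above the gap junction mean in 6 of 8 tumors, by 0.55 on average and from -0.25 to 1.95. The order was not the same elsewhere: it was above in 4 of 10 CAL27 tumors, with a mean difference of -0.14, and in 7 of 16 SCC13 tumors, with a mean difference of -0.23. In culture the difference was -0.023 in A431, with 1 of 2 above 0, and 0.075 in CAL27, with 2 of 2 above 0. The desmosome mean itself was above the median gene in 7 of 8 A431, 8 of 10 CAL27 and 14 of 16 SCC13 tumors. The gap junction mean was above it in 3, 7 and 12 of these, and CLDN1 in 1, 4 and 8.

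**Figure D5:**
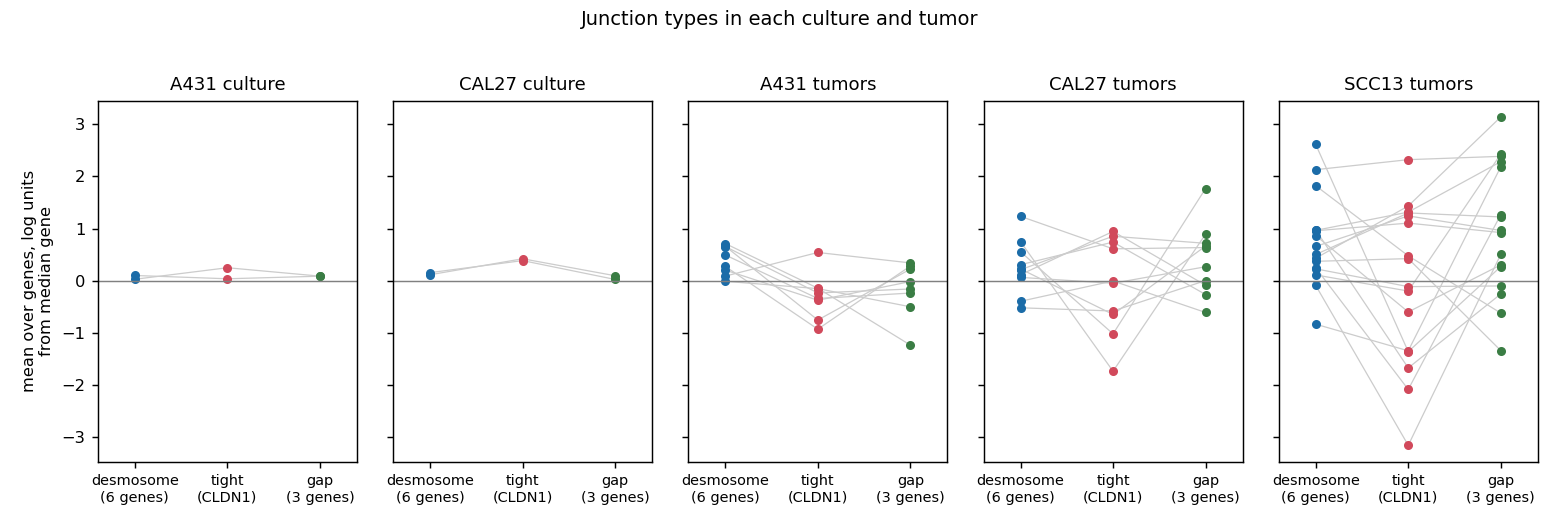
Mean over the 6 desmosome genes, value of CLDN1 and mean over the 3 gap junction genes in each culture and tumor, in log units from the median gene. Grey lines join the values of 1 sample, and no junction type is highest in every tumor of any of the 3 lines.

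Other genes were taken from lists of cell junction and related genes, and not all of them are parts of desmosomes, tight junctions or gap junctions. In the list of other cell junction genes, 6 were measured (DSP, DSG3, CDH13, MPZL2, LYPD3 and CXADR). Desmoplakin (DSP) and desmoglein 3 (DSG3), the closest partners of the members, were not called in any table. DSP and DSG3 had means of 0.11 and 0.19 in A431 culture and 0.28 and 0.43 in CAL27 culture. In tumors they had means of 0.070 and -0.044 in A431, -0.47 and 0.11 in CAL27 and -0.37 and -0.77 in SCC13. Both are desmosome genes and are not part of the desmosome mean above. MPZL2 was called higher in CAL27 culture, at 0.48, and CDH13 in SCC13 tumors, at 1.04 (limma, adjusted p = 0.028 and 0.043), both named after their values were seen. In CAL27 culture and SCC13 tumors 4.89% and 23.5% of all genes were called higher. 0 of the 6 were called lower in any table, beside 11.3% to 23.9% of all genes. The list's median mean lay between -0.093 in A431 tumors and 0.15 in CAL27 culture.

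Keratins, the filaments that desmosomes hold, moved in both directions. Of 9 measured, 5 were called higher and 0 lower in SCC13 tumors, 2 higher and 2 lower in CAL27 tumors, 1 higher and 0 lower in A431 tumors and A431 culture, and 1 higher and 2 lower in CAL27 culture. Of all genes, 23.5% were called higher and 23.9% lower in SCC13 tumors and 18.7% and 22% in CAL27 tumors. In A431 tumors these shares were 7.95% and 11.9%. They were 2.14% and 11.3% in A431 culture and 4.89% and 18.7% in CAL27 culture. Their median mean in SCC13 tumors was 1.21, against -0.019 for all genes. KRT5, the type II keratin of basal cells, rose in 4 tables, with means of 0.55 and 0.46 in A431 and CAL27 culture and 1.16 and 1.21 in CAL27 and SCC13 tumors (limma, adjusted p from 0.0077 to 0.043). KRT14, its type I partner, fell in CAL27 culture to -0.60 and in CAL27 tumors to -1.60 ± 1.08 (limma, adjusted p = 0.021 and 0.00082). KRT16 fell in the same tables, to -0.67 and -1.23. KRT6A rose in CAL27 and SCC13 tumors to 1.19 and 2.77, and KRT6B in A431 and SCC13 tumors to 0.70 and 1.28. KRT1 and KRT10 were the other keratins called in SCC13 tumors. KRT14 and KRT16 have pseudogene copies and the KRT6 genes are near-identical, and whether guides cut several copies was not tested.

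Hemidesmosomes hold the same keratins to the basement membrane. Of their 9 measured genes, 0 were called in either culture, 1 was lower in A431 tumors, 3 were higher and 2 lower in CAL27 tumors, and 2 were higher and 1 lower in SCC13 tumors. Of all genes, 7.95% were called higher and 11.9% lower in A431 tumors and 18.7% and 22% in CAL27 tumors. In SCC13 tumors these shares were 23.5% and 23.9%. They were 2.14% and 11.3% in A431 culture and 4.89% and 18.7% in CAL27 culture. ITGB4, the integrin beta 4 subunit, rose in CAL27 and SCC13 tumors to 1.59 ± 0.79 and 2.42 ± 1.68, and DST, the plaque protein BPAG1, to 1.91 ± 0.81 and 2.14 ± 1.99 (limma, largest of the 4 adjusted p-values 0.00031). CD151, a tetraspanin of the hemidesmosome, fell in A431 and CAL27 tumors, to -2.15 ± 2.61 and -1.40 ± 1.94 (limma, adjusted p = 0.039 and 0.025). The other hemidesmosome genes called were LAMB3, higher, and LAMA3, lower, in CAL27 tumors, and PLEC, lower, in SCC13 tumors.

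Of the listed regulators of junction genes in epidermis, 3 were measured: the transcription factors TP63 and GRHL1 and the receptor NOTCH3. TP63, the master regulator of stratified epithelium and a known activator of PERP, fell in all 5 tables, with means of -1.30 and -1.02 in A431 and CAL27 culture and -2.79, -2.55 and -1.89 in A431, CAL27 and SCC13 tumors (limma, adjusted p at most 0.010). GRHL1, an activator of DSG1, rose in CAL27 and SCC13 tumors to 1.20 ± 0.97 and 2.29 ± 1.92 (limma, adjusted p = 0.0063 and 2.4e-05), which are the tumors in which DSG1 was called too. In these tumors 18.7% and 23.5% of all genes were called higher. DSG1 was also called in CAL27 culture, where GRHL1 lay at 0.014 (limma, adjusted p = 0.90). A link between GRHL1 and DSG1 was not tested. NOTCH3 rose in the tumors of all 3 lines, to 1.66, 1.88 and 1.72, and lay at 0.086 and -0.098 in the cultures of A431 and CAL27.

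Distances were taken over the 5 table means, each divided by its SD over genes. In the median the members lay closer to each other than genes of the library did, which was not tested. The median distance between 2 members was 1.45, against 2.23 between 2 genes of the library, and the closest pair was PERP and GJB6 at 0.62. For 8 of the 10 members the nearest gene outside the set was closer than that, among far more genes to choose from. DSG1 was nearest to NSG1 (0.28), followed by CYR61 and SOX4, which like DSG1 had means above 1 in CAL27 and SCC13 tumors. GJB2 was nearest to LAD1 (0.42), HDAC1 and KRT1, with means of 1.58, 2.06 and 2.16 in SCC13 tumors and between -0.22 and 0.43 in the other tables. JUP stood farther off, with KRT6B (0.88) as its nearest gene, then E2F8 and KCNK7. PKP1 was nearest to S100A14 (0.33), DSC2 to SERPINH1 (0.38), DSC3 to SERPINB3 (0.49), PERP to ITGB6 (0.62), CLDN1 to HMGB2 (0.48), GJA1 to SLC7A8 (0.33) and GJB6 to PYCARD (0.42).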

How the data were processed

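Guide abundance was measured in 48 samples, 10 initial and 38 later. The submitters' processing notes name Bowtie2, without a version. For each line and setting the authors deposited a score per gene and later sample, which per the file names is a log fold change. It is 0 for the non-targeting guides, and the sources used here give no log base, pseudocount, summary over guides or genome build for it. Per the series design, 334 genes and 136 non-targeting guides were in the library, and 327 genes were in each table. The deposited tables hold no counts, so the depth is unknown and no counting error is given. Columns carry no replicate numbers and are called value columns by their place.

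Columns were centred on their medians over 327 genes. Limma 3.58.1 in R 4.3.3 (lmFit and eBayes) tested each table against 0, tumors against culture and the cultures of both lines in 1 fit each, and the 3 lines' tumors in another, with Benjamini-Hochberg adjustment over 327 genes at 0.05. Error of the initial cells, to which each column refers, enters no test, and columns of 1 line and setting share it. Fits across tables assume 1 log base in all tables. The fits were tested on simulated data. Alternatives were the deposited values, columns scaled by their median absolute deviation, eBayes with trend and robust, shared exact values set to missing, a spread for each group (arrayWeights), an exact sign-flip test, leaving out each column and, for junction types, the median over members. The members, gene lists and tests were chosen with earlier results of these data known. All 10 members are named. Genes of the 4 lists are given with values where they passed in at least 2 of the 5 tables. MPZL2 and CDH13, which passed in 1 table each, and DSP and DSG3, which passed in 0, were added with values after these were seen. Each member has up to 3 nearest genes by Euclidean distance over the 5 table means.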

Additional observations from a re-analysis of the deposited data

Results flagged for a closer look

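The 10 members were each tested for a value apart from the others in the 8 A431 tumors and in the 10 CAL27 tumors, and the SCC13 tumors, being more than 10, were not tested. Of these 20 sets of values 2 had one, where chance gives about 1. PERP in A431 tumors was 0.92 in value column 2, while the next highest of the 8 was -0.29. GJA1 in CAL27 tumors was -1.08 in value column 1, while the next lowest of the 10 was 0.35.

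GJB2 differed between the tumors of the 3 lines by the moderated F test (limma, adjusted p = 0.0093). It was higher in SCC13 than in A431 tumors by 2.11 and in SCC13 than in CAL27 tumors by 1.85. JUP lay above the median gene in every A431 tumor and below it in both A431 cultures, a difference of 1.24 that passed the limma test with a spread for each setting and not with 1 spread. PKP1 lay below the median gene in both CAL27 cultures and above it in both A431 cultures, a difference of -0.42 that did not pass (limma, adjusted p = 0.23). The shares of all genes split in these ways were not counted.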

How the results depend on the processing

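The reference and the scaling of the columns moved the results most. With the deposited values, relative to the non-targeting guides, 2 members were lower and 0 higher in A431 culture, 7 and 0 in CAL27 culture, 2 and 1 in A431 tumors, 3 and 0 in CAL27 tumors and 4 and 0 in SCC13 tumors. Signs turned for DSC3 (-0.030), DSG1 (-0.12) and CLDN1 (-0.076) in CAL27 culture and PKP1 (-0.27) in SCC13 tumors, as the shift of the reference makes them. The members called were then 3 in SCC13 against A431 tumors (JUP, DSC2 and DSC3), 3 by the F test (JUP, DSC2 and GJA1) and, in place of GJB2, GJA1 in SCC13 against CAL27 tumors. With columns scaled by their median absolute deviation, 1 member was called in A431 tumors against culture (JUP) and 1 in CAL27 tumors against culture (DSC3). Between lines, 1 was called in CAL27 against A431 tumors (JUP) and 0 in SCC13 against CAL27 tumors. DSG1 lost its call in CAL27 culture. The desmosome mean exceeded the gap junction mean by 0.25 deviations in CAL27 culture. That unit differs from that of the 0.075 log units above, so the sizes cannot be compared. With own spreads, the counts were 1 in A431 tumors against culture, 1 in CAL27 against A431 tumors and 2 in SCC13 against A431 tumors. For the calls and signs that changed, the cause was not tested.

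By the exact sign-flip test 0 members and 0 genes were called in A431 tumors, against 65 genes by limma, since the smallest p that 8 tumors allow is 0.0078 (adjusted p of JUP and DSC2 0.066). The calls in CAL27 and SCC13 tumors held. Leaving out 1 column gave 1 to 2 members higher and 0 to 1 lower in A431 tumors, 1 to 3 higher in CAL27 tumors and 0 to 2 called in SCC13 against CAL27 tumors. The calls of JUP in A431, of DSG1 in CAL27 and SCC13 and of GJB2 in SCC13 tumors held in all of these fits. The tables of 2 cultures could not be tested with 1 left. In turn, 31 of 31 results were judged unchanged with trend and robust, and 36 of 36 with shared exact values missing. In both settings the counts of members called were the same, and the single members among these results kept their side of the threshold. The 36 also include differences between junction types, which have no threshold.

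Counts over all genes moved by more than 1.5 times as follows. With deposited values they were 137 in A431 culture (44 with centring), 293 in CAL27 culture (77), 233 in SCC13 tumors (155), 22 between cultures (10), 25 in CAL27 against A431 tumors (11), 126 in SCC13 against A431 tumors (69) and 138 by the F test (87). Of the genes called with deposited values, 1, 0, 7, 18 and 13 were higher in A431 culture, CAL27 culture and the tumors of A431, CAL27 and SCC13. With scaled columns the counts were 67 in A431 culture, 36 and 68 in A431 and CAL27 tumors against culture (0), 21 between cultures, 42 in CAL27 and 39 in SCC13 against A431 tumors. With own spreads they were 25 and 101 in A431 and CAL27 tumors against culture and 76 in CAL27 against A431 tumors. Trend and robust gave 128 in CAL27 culture and 30 between cultures, and shared values missing gave 16 there. No paired analysis was possible because the value columns carry no replicate numbers.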
